A study of Mus musculus with 28 samples.

Results

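Chromosomes 14 and 15 of the mouse genome were followed in bins of 1 Mb through the copy number of 24 tumours. The 214 bins described here are those of the GRCm38 build that a copy number segment reached in all 24 tumours, 115 on chromosome 14 and 99 on chromosome 15, of 2388 autosomal bins in all. A bin holds the mean log2 copy ratio of the segments in it, weighted by their overlap. What 0 stands for on that scale is not known, since the comparison DNA and the centring were not given. A gain that brings 3 copies in place of 2 to every cell adds 0.58. The median over all autosomal bins ran from -0.25 to -0.0147 in the thymic lymphomas and from -0.0865 to 0.0049 in the sarcomas. Gains, losses and levels below are relative to 0 and not to these medians, except where centring is named. The pair of chromosomes was chosen from copy number values of these same tumours, among them the contrast of AD with RP thymic lymphomas. That contrast is therefore given below as a description, and the bin counts past a p threshold printed there are no evidence of a difference. Another 3 bins of chromosome 14 were left out because they touch the T-cell receptor alpha and delta locus, which T cells rearrange.

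The study sequenced the exomes of tumours from mice with germline p53 alterations. The AD mice carried p53 AD/-, an allele whose protein forms dimers, opposite a null allele, and the RP mice carried p53 RP/-, whose protein stays monomeric, again opposite a null allele. All mice were of a mixed BALB/C and C57BL6 background, and tumours were taken at the end point. The groups were 7 AD thymic lymphomas, 7 RP thymic lymphomas, 5 AD sarcomas and 5 RP sarcomas, and no group kept a wild-type p53 allele. The 4 ear samples of the series were not used here.

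Aneuploidy is common in T-cell lymphomas of p53-deficient mice, where whole chromosomes are often gained through missegregation. Mouse chromosome 15 carries Myc, which encodes a transcription factor that drives cell growth, and Il7r, the receptor chain through which interleukin 7 sustains T-cell precursors. Mouse chromosome 14 carries the tumour suppressors Rb1, which holds back entry into S phase, and Bap1, a deubiquitinase acting on chromatin, beside an oncogenic miRNA cluster. A tumour sample also holds normal cells, so a gain in part of its cells and a gain diluted by normal cells cannot be told apart in these values.

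In the AD thymic lymphomas the T-cell receptor bins that were left out averaged -0.92 ± 0.41, and in the RP thymic lymphomas -0.57 ± 0.41, with a highest value of -0.03 (SD, n = 7 each). In the AD sarcomas the same bins averaged 0.16 ± 0.11, and in the RP sarcomas 0.03 ± 0.08 (SD, n = 5 each). The mean was thus below 0 in both lymphoma groups, which are labelled as thymic tumours, and above 0 in both sarcoma groups. The segments rested on 8390 to 8452 exome markers a tumour on chromosome 14 and 8515 to 8520 on chromosome 15. On chromosome 14 the marker number was 8390 to 8393 in AD thymic lymphomas, 8410 to 8414 in their RP counterparts, and in sarcomas it was 8451 to 8452. A difference between these groups and a difference in how they were processed therefore cannot be told apart.

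Both chromosomes hold miRNA genes, and 8 on chromosome 14 are shown because a single tumour kept 6 of them while losing the other two. They were chosen after their values were seen. The 6 genes of the miR-17-92 cluster, an oncogenic cluster in B-cell and T-cell tumours, lie within 836 bases at chr14:115043671-115044506 on the plus strand. Mir15a and Mir16-1, which restrain the cell cycle and survival genes, lie at chr14:61631880-61632096 on the minus strand. All 8 matched RefSeq mature sequences, with positions on GRCm38.p6. The capitals mark the seed, bases 2 to 8, which pairs with target messages.
miR-17-5p: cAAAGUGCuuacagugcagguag
miR-20a-5p: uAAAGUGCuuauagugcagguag
miR-18a-5p: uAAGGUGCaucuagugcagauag
miR-19a-3p: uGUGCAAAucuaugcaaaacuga
miR-19b-3p: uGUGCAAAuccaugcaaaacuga
miR-92a-3p: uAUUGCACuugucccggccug
miR-15a-5p: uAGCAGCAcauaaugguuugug
miR-16-5p: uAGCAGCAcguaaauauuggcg
A seed is shared by miR-17-5p and miR-20a-5p, another by miR-19a-3p and miR-19b-3p, and another by miR-15a-5p and miR-16-5p. The copy number values below are of the genes, and no miRNA level was measured.

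Chromosome 15 was above 0 in nearly all thymic lymphomas and gained whole in 5 of 14. Its mean over the 99 bins had a lowest value of -0.25, a median of 0.14 and a highest value of 0.55 in the 7 AD thymic lymphomas. In the 7 RP thymic lymphomas the lowest was 0.12, the median 0.48 and the highest 0.63. The mean lay above 0 in 6 of 7 AD and in 7 of 7 RP thymic lymphomas, and the ranges of the genotypes overlapped. Among the 19 autosomes, chromosome 15 had the highest mean over the 14 thymic lymphomas, at 0.27 ± 0.24 (SD). It also had the highest mean over the 10 sarcomas, at 0.16 ± 0.11 (SD), so this rank was not particular to the lymphomas. It was among the 4 highest autosomes in 11 of 14 thymic lymphomas, 4 of 7 AD and 7 of 7 RP, and in 9 of 10 sarcomas.

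Chromosome 14 moved in both directions. In the AD thymic lymphomas its mean over 115 bins had a lowest value of -0.43, a median of -0.12 and a highest value of 0.71. In the RP thymic lymphomas the lowest was -0.02, the median 0.45 and the highest 0.63. The highest and the lowest chromosome 14 of the series both belonged to AD thymic lymphomas. Its SD over the 14 thymic lymphomas, 0.35, was the largest of the 19 autosomes, while the other 17 had SDs of 0.12 to 0.28. Its mean over them, 0.18, ranked 3 of 19.

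**Figure D1:**
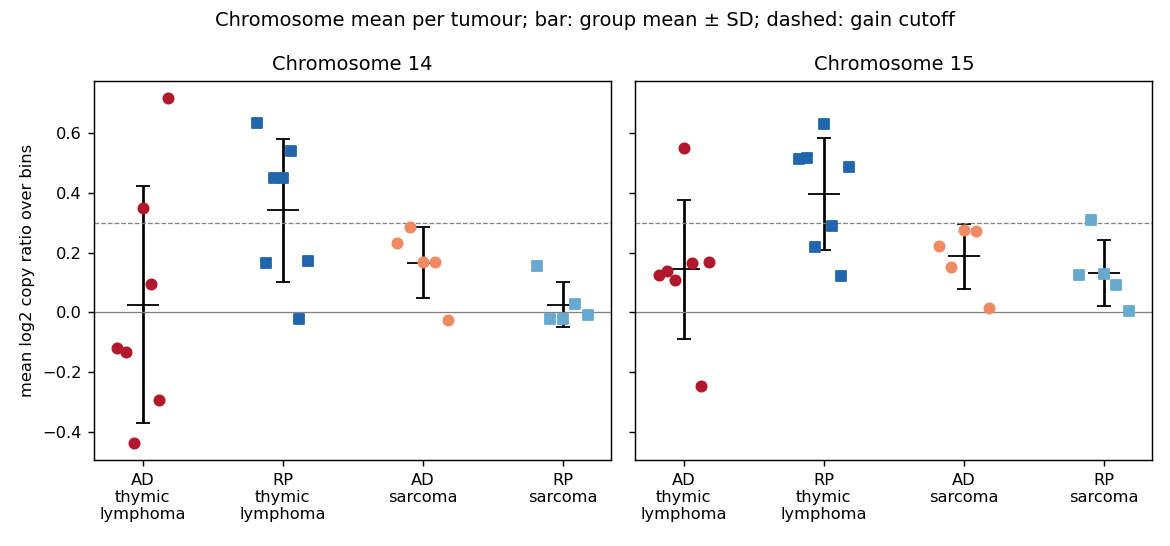
Mean log2 copy ratio of chromosome 14 (115 bins) and chromosome 15 (99 bins) in each tumour, by group. Points are tumours, bars are group means ± SD, and the dashed line is the gain cutoff of 0.3. Chromosome 14 of the AD thymic lymphomas spans -0.43 to 0.71, and no sarcoma mean passes 0.31.

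A chromosome was called gained whole where at least 80% of its bins lay at 0.3 or above. Chromosome 14 was gained whole in 6 thymic lymphomas, 2 AD and 4 RP. The means were 0.35 in AD thymic lymphoma 4 and 0.71 in AD thymic lymphoma 7. They were 0.63, 0.45, 0.45 and 0.54 in RP thymic lymphomas 1, 3, 4 and 5. As copy ratios these gains ran from 1.27 in AD thymic lymphoma 4 to 1.64 in AD thymic lymphoma 7. Evenness differed: the lowest and highest bins were 0.52 and 0.55 in RP thymic lymphoma 5 and 0.61 and 0.77 in AD thymic lymphoma 7. In RP thymic lymphoma 1 they were 0.30 and 0.70, and in RP thymic lymphoma 3 they were 0.28 and 0.47. The lowest bins of these tumours rested on short segments, of 5 markers in RP thymic lymphoma 1 and 18 in RP thymic lymphoma 3. Outside the left-out locus their long segments lay at 0.50 to 0.70 and at 0.44 to 0.47.

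Chromosome 15 was gained whole in 5 thymic lymphomas, 1 AD and 4 RP. Its mean was 0.55 in AD thymic lymphoma 4, and 0.51, 0.52, 0.63 and 0.48 in RP thymic lymphomas 1, 2, 4 and 7. In RP thymic lymphoma 2 the whole chromosome was 1 segment at 0.52. RP thymic lymphoma 4 was the uneven one, with bins between 0.20 and 1.35. Just outside the cutoff lay chromosome 15 of RP thymic lymphoma 5, at 0.29, and chromosome 14 of AD sarcoma 2, also at 0.29. Just inside it lay chromosome 14 of AD thymic lymphoma 4, where 114 of 115 bins passed.

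**Figure D2:**
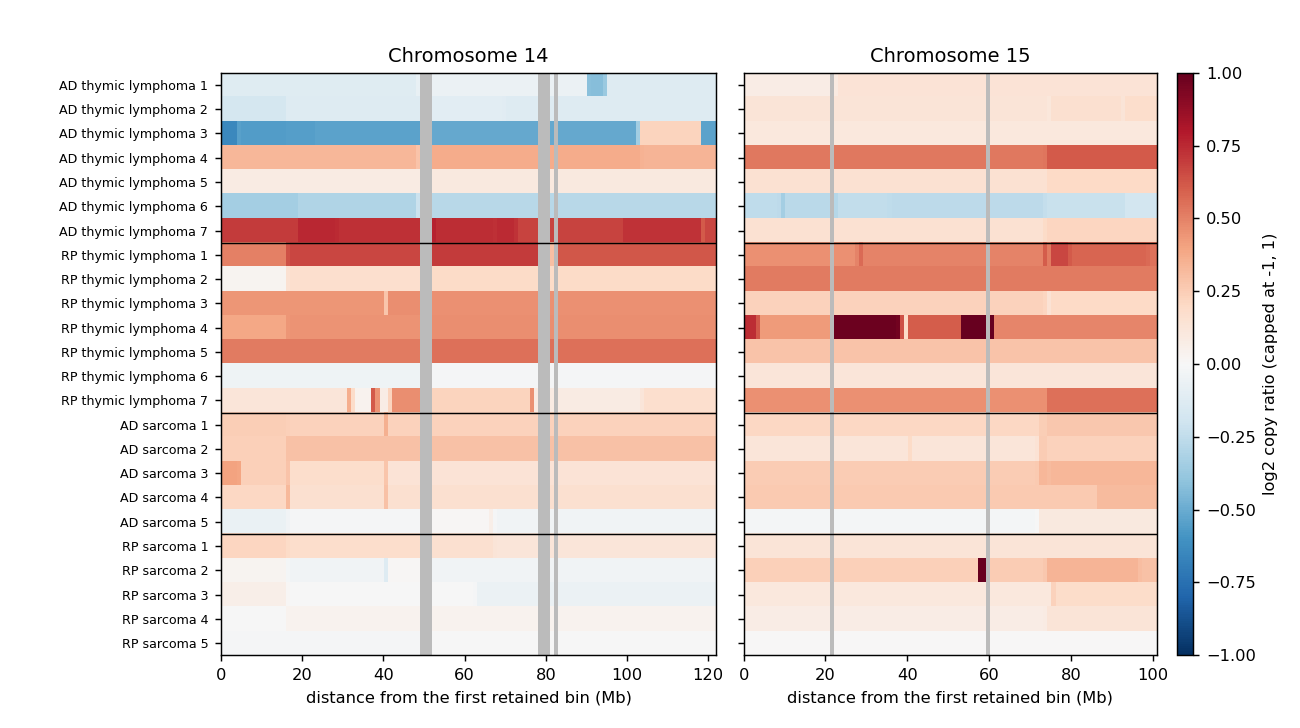
Log2 copy ratio of every retained bin of chromosomes 14 and 15 (columns, by distance from the first retained bin in Mb) in the 24 tumours (rows). Colour is capped at -1 and 1, and grey marks bins not used. AD thymic lymphoma 3 is lost along most of chromosome 14 apart from a block near its distal end, and RP thymic lymphoma 7 has short gained blocks on chromosome 14.

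Set side by side, the AD thymic lymphomas averaged 0.03 ± 0.40 on chromosome 14 and the RP thymic lymphomas 0.34 ± 0.24 (SD, n = 7 each), a difference of -0.31 for AD minus RP. On chromosome 15 the AD thymic lymphomas averaged 0.14 ± 0.23 and the RP thymic lymphomas 0.40 ± 0.19, a difference of -0.25. The difference per bin ran from -0.39 to -0.22 on chromosome 14 and from -0.36 to -0.19 on chromosome 15, while the median over all autosomal bins was 0.04. As a description only, 71 of 99 chromosome 15 bins and 0 of 115 chromosome 14 bins were lower in AD at an unadjusted p under 0.05 by exact permutation, beside 3.02% of all autosomal bins lower and 6.87% higher. The bins were chosen with this contrast known, and neighbouring bins share segments, so these p-values test nothing here and nothing is read from the counts. The counts also rest on single tumours. The chromosome 15 count was 0 without AD thymic lymphoma 1, 3 or 6 or without RP thymic lymphoma 1, 2, 4 or 7, and it was 4 without AD thymic lymphoma 2, 5 or 7. It was 99 without AD thymic lymphoma 4, 98 without RP thymic lymphoma 6, and 71 without RP thymic lymphoma 3 or 5. The chromosome 14 count was 115 without AD thymic lymphoma 7, 10 without AD thymic lymphoma 4, 15 without RP thymic lymphoma 6 and 0 without any other single tumour.

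The genes of chromosome 15 followed the chromosome. All 9 listed genes around Myc were gained in 5 thymic lymphomas, 1 AD and 4 RP, and so were all 14 listed cytokine receptor and lymphoid genes. Those lists count Il7r, Il2rb, a chain of the interleukin 2 and 15 receptors, and Rac2, a small GTPase of blood cells. The lists of 10 chromatin genes, 7 cell cycle and cohesin genes and 5 metabolic genes gave 5 thymic lymphomas for each member. Of 9 growth signalling genes, Angpt1, a ligand of the Tie2 receptor, was gained in 4 and the rest in 5. The median over all 776 coding genes of chromosome 15 was also 5, against 0 over 20665 autosomal coding genes. The lists were drawn up with results of these tumours known, and none of their genes was lost in a thymic lymphoma.

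Il7r, Skp2, which targets the cell cycle inhibitor p27 for destruction, and Rictor, a subunit of mTOR complex 2, had the same values in each group because they share segments. Il7r ran from -0.26 over a median of 0.13 to 0.53 in AD thymic lymphomas, and from 0.12 over 0.43 to 0.52 in RP thymic lymphomas. It averaged 0.13 ± 0.23 in the AD and 0.36 ± 0.15 in the RP thymic lymphomas (SD, n = 7 each). Ep300, a histone acetyltransferase near the distal end, averaged 0.17 ± 0.24 in AD and 0.40 ± 0.20 in RP thymic lymphomas. In the sarcomas Ep300 averaged 0.24 ± 0.09 in AD and 0.16 ± 0.12 in RP (SD, n = 5 each).

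On chromosome 14 the genes of the 6 lists were gained in 6 or 7 thymic lymphomas, 2 of them AD. The 9 tumour suppression and cell death genes, among them Rb1, Bap1 and Lats2, a kinase of the Hippo pathway, were each gained in 6 and lost in 1 or 2. The 7 listed genes gained in 7 were Bmpr1a, Bmp4, Mat1a, Cdkn3, Parp2, Apex1 and Pnp. Over the 799 coding genes of chromosome 14 the median was 6, the same as for most listed genes. Rb1 was lowest in AD thymic lymphoma 3, at -0.52, and highest in AD thymic lymphoma 7, at 0.75, and these extremes lay in the same genotype. It averaged 0.04 ± 0.42 in the AD and 0.37 ± 0.24 in the RP thymic lymphomas (SD, n = 7 each). Bap1 averaged 0.01 ± 0.43 in AD and 0.33 ± 0.25 in RP thymic lymphomas.

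The smallest regions shared by the most thymic lymphomas differed between the chromosomes. On chromosome 14 the largest number of thymic lymphomas with a gain was 7, in 10 bins, against a median of 6 per bin and a minimum of 5. All of these bins were set by RP thymic lymphoma 7, the only thymic lymphoma with a partial gain of the chromosome, in 11 bins or 9.57% of it. Without RP thymic lymphoma 7 the largest number was shared by 113 bins, and no shorter region was left. On chromosome 15, 98 of 99 bins were gained in 5 thymic lymphomas, and the remaining bin in 4, so no shorter region stood out there.

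**Figure D3:**
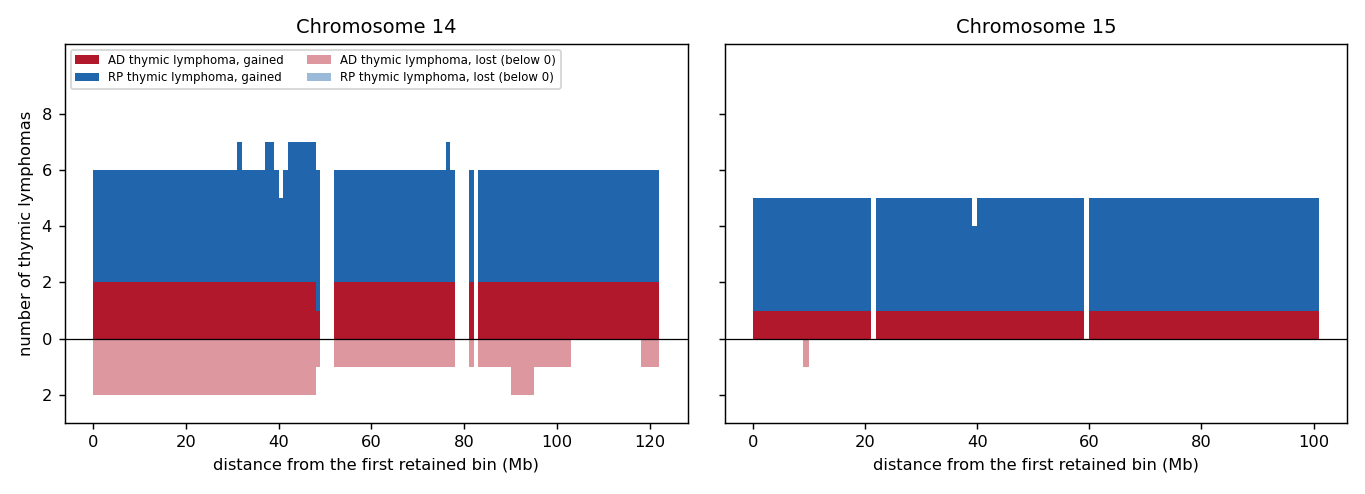
Number of AD and of RP thymic lymphomas with a gain (above 0) or a loss (below 0) in each bin of chromosomes 14 and 15, by distance from the first retained bin in Mb. On chromosome 14 up to 5 RP and 2 AD thymic lymphomas are gained in a bin, and on chromosome 15 up to 4 RP and 1 AD.

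RP thymic lymphoma 7 carried 4 gained segments on chromosome 14. The first, chr14:34396164-35309231, lay at 0.52 over 71 markers and covered 7 coding genes, Mmrn2, Bmpr1a, 9230112D13Rik, Ldb3, Opn4, Wapl and Grid1. Bmpr1a is a receptor for bone morphogenetic proteins, and Wapl releases cohesin from chromosomes. The second, chr14:40815867-41699146, lay at 0.61 over 104 markers and 18 coding genes, with Mat1a, which makes S-adenosylmethionine in liver.

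The third gained segment of that tumour, chr14:44627593-52824622, was the longest, at 0.47 over 871 markers and 123 coding genes. It ran into the bins left out for the T-cell receptor. It held Bmp4, a bone morphogenetic protein, Cdkn3, a phosphatase of cyclin-dependent kinases, the DNA repair genes Parp2 and Apex1, and Pnp, the purine nucleoside phosphorylase that T cells need. The fourth, chr14:78994399-79661939, lay at 0.59 over 111 markers and 11 coding genes, none of which is in the lists. Outside the left-out locus the long segments between and around these 4 were at 0.03 to 0.22. RP thymic lymphoma 7 thus alternated between stretches above and below the gain cutoff. Its median over all autosomal bins was -0.19.

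Loss of chromosome 14 was seen in AD thymic lymphomas only, in 3 of 7 against 0 of 7 RP, a difference that was not tested. AD thymic lymphoma 3 lost 100 bins, 87.0% of the chromosome, in segments at about -0.64 to -0.52. Its block chr14:105892802-120946718, of 15.1 Mb, 230 markers and 22 coding genes, was at 0.22 instead. The block held the miR-17-92 cluster whose seeds are printed above. Mir17 was at 0.22 there, while Mir15a and Mir16-1 outside the block were at -0.52.

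Across the other AD thymic lymphomas Mir17 was at -0.13, -0.13, 0.34, 0.10, -0.28 and 0.72. In the 7 RP thymic lymphomas it was at 0.62, 0.19, 0.45, 0.47, 0.55, -0.01 and 0.17. Mir17 was gained in 6 thymic lymphomas and lost in 0, and the tumours high at Mir17 were those gained on chromosome 14 as a whole. AD thymic lymphoma 6 lost 48 bins of chromosome 14, 41.7%, at -0.34 and -0.30, just past the cutoff, and 1 bin of chromosome 15 at -0.34. Its median over all autosomal bins was -0.15. AD thymic lymphoma 1 lost 5 bins, through chr14:93173826-97789581 at -0.43, a segment of 18 markers with the 4 coding genes Pcdh9, Spertl, Klhl1 and Dach1, named after their values were seen.

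On chromosome 15, the segments of over 10 markers that stood at least 0.5 above the median of their own chromosome lay at Myc or next to it, in RP thymic lymphoma 4 and RP sarcoma 2. RP thymic lymphoma 4 had chromosome 15 in 9 segments, all above 0. The highest, chr15:60015047-63776676, lay at 1.35, a ratio of 2.56, over 13 markers and 5 coding genes, 4933412E24Rik, Lratd2, A1bg, Myc and Gsdmc. The segment before it, chr15:56667658-59651771, lay at 1.08 with Sqle, a cholesterol synthesis enzyme, Nsmce2, a SUMO ligase for DNA repair, and Trib1, a pseudokinase. Further proximal, chr15:25364228-40870527 lay at 0.98 with 71 coding genes and Fzd6, a Wnt receptor.

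Between and beyond these peaks RP thymic lymphoma 4 was lower. Angpt1 lay in a segment of 10 markers at 0.20, Il7r was at 0.43, the cohesin subunit Rad21 at 0.60, and the segment chr15:63777440-103899183 beyond Myc at 0.49. The Myc segment was thus the highest level of a stepped chromosome in that tumour.

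RP sarcoma 2 had the highest Myc value of the series. Its segment chr15:60822962-61989345, of 1.17 Mb and 11 markers, lay at 2.22, a ratio of 4.67, and held Lratd2, A1bg and Myc. The segment covered 79.8% of Myc, and the next segment began 1.79 Mb on, so the distal end of the gain was not resolved. Pvt1, the noncoding neighbour of Myc, lay in that gap and took the value of the nearest segment.

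Myc was at 0.14, 0.13, 0.11, 0.53, 0.15, -0.26 and 0.15 in the 7 AD thymic lymphomas. It was at 0.49, 0.52, 0.23, 1.35, 0.29, 0.12 and 0.46 in the 7 RP thymic lymphomas. In the RP thymic lymphomas only RP thymic lymphoma 4 stood apart from its chromosome, and the genotypes overlapped. The sarcomas gave 0.20, 0.12, 0.25, 0.26 and -0.02 in AD and 0.13, 2.22, 0.11, 0.08 and 0.00 in RP. Apart from RP sarcoma 2, no sarcoma passed 0.26 at Myc.

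**Figure D4:**
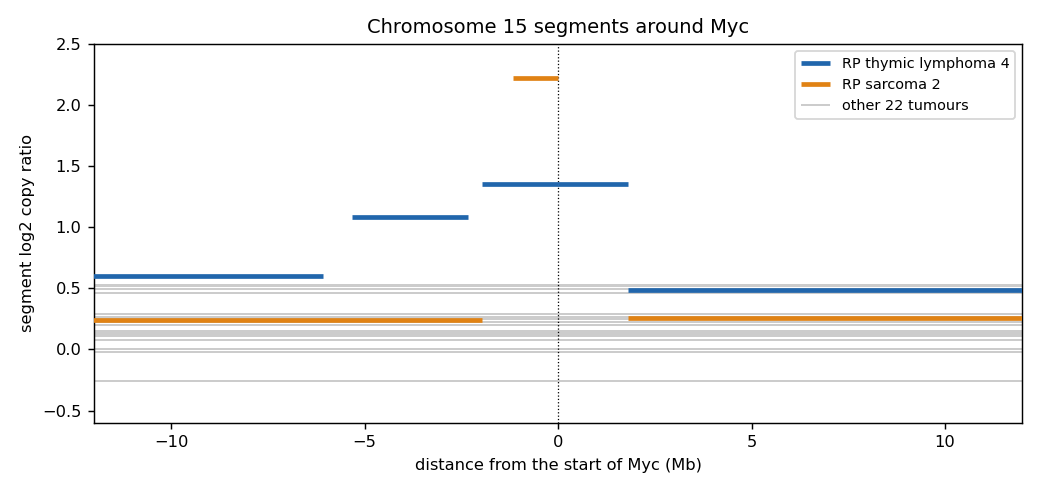
Segments within 12 Mb of the start of Myc, by distance in Mb and log2 copy ratio. RP thymic lymphoma 4 is blue, RP sarcoma 2 orange and the other 22 tumours grey. The short orange segment at 2.22 ends at Myc, and the blue segment at 1.35 spans it.

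In the sarcomas neither chromosome was gained whole in any of 10 tumours at the cutoff of 0.3. With a cutoff of 0.2, chromosome 14 was gained whole in 2 and chromosome 15 in 4, and with each tumour centred on its autosomal median each chromosome was in 1. Chromosome 14 averaged 0.23, 0.29, 0.17, 0.17 and -0.03 in the 5 AD sarcomas and 0.15, -0.02, -0.02, 0.03 and -0.01 in the 5 RP sarcomas. The AD mean of 0.17 ± 0.12 was 0.14 above the RP mean of 0.03 ± 0.07 (SD, n = 5 each). Of the AD sarcomas 4 lay above all 5 RP sarcomas and the remaining 1 lay below them, so the groups overlapped. The exact permutation test, two-sided, gave p = 0.0794 and an adjusted p of 0.528 over the 19 autosomes, where the smallest p for 5 against 5 is 0.00794.

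Chromosome 15 averaged 0.22, 0.15, 0.28, 0.27 and 0.01 in the AD sarcomas and 0.13, 0.31, 0.13, 0.09 and 0.00 in the RP sarcomas. All 10 were above 0, and the groups overlapped. The AD mean was 0.19 ± 0.11 and the RP mean 0.13 ± 0.11, a difference of 0.06 with an exact permutation p of 0.444, two-sided, and an adjusted p of 0.836. Per bin, 0 of 214 passed after adjustment in the exact test and in limma. The smallest p that the exact test can give here is 0.00794. Adjusted over 2388 bins, the 214 bins could not pass by themselves even at that p. The 0 of the exact test is therefore no evidence that the groups are alike. At an unadjusted p under 0.05, 7 chromosome 14 bins were higher in AD in the exact test, beside a background of 5.86% of autosomal bins higher and 0.0838% lower. Before adjustment limma, a moderated linear model, gave 99 higher on chromosome 14 and 2 on chromosome 15, of 337 higher and 4 lower over all 2388 autosomal bins.

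Partial gains of chromosome 15 in the sarcomas took 29 bins in AD sarcoma 3, 15 in AD sarcoma 4 and 25 in RP sarcoma 2, those at Myc included, and the 3 tumours met in the 11 bins of chr15:89000001-100000000. Of the listed genes, Wnt1, a growth ligand, Kmt2d, a histone methyltransferase, Vdr, the vitamin D receptor, and Hdac7, a histone deacetylase of thymocytes, were gained in all 3. Kmt2d was at 0.33 in AD sarcoma 3, 0.32 in AD sarcoma 4 and 0.34 in RP sarcoma 2, all just past the cutoff. Chromosome 14 had partial gains in AD sarcomas 1, 3 and 4, of 1, 5 and 1 bins. The single bins rested on short segments, of 18 markers in AD sarcoma 1 and 6 markers in AD sarcoma 4.

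The distal 27 bins of chromosome 15, from 77 Mb on, were higher than its proximal 72 bins in 8 of 14 thymic lymphomas and in 8 of 10 sarcomas. The boundary was set after the values were seen. The distal excess averaged 0.02 ± 0.07 in thymic lymphomas and 0.06 ± 0.04 in sarcomas (SD), so it was small in both.

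Between tumour types, chromosome 14 averaged 0.18 ± 0.35 in thymic lymphomas (SD, n = 14) and 0.10 ± 0.12 in sarcomas (SD, n = 10). Within genotypes the difference was 0.09, with an exact permutation p of 0.461, two-sided, and an adjusted p of 0.499 over 19 autosomes. Chromosome 15 averaged 0.27 ± 0.24 in thymic lymphomas and 0.16 ± 0.11 in sarcomas, a difference of 0.11 with an exact permutation p of 0.176 and an adjusted p of 0.372. Both ranges of the thymic lymphomas enclosed those of the sarcomas. Per bin, 0 of 214 passed in the exact permutation test, and 0 at an unadjusted p under 0.05, beside 5.9% of autosomal bins higher and 33.9% lower in thymic lymphomas. The smallest adjusted p among the 214 was 0.252, and limma called 0 with and without adjustment.

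Whole gains of the chromosomes met in 3 thymic lymphomas, AD thymic lymphoma 4 and RP thymic lymphomas 1 and 4. Chromosome 14 alone was gained in AD thymic lymphoma 7 and RP thymic lymphomas 3 and 5, and chromosome 15 alone in RP thymic lymphomas 2 and 7. Neither was gained in 6, of which 5 were AD. Of RP thymic lymphomas, only RP thymic lymphoma 6 had neither, with means of -0.02 and 0.12. These counts hold for the gain cutoff used above, without centring. With each tumour centred on its autosomal median, 6 thymic lymphomas had whole gains of both chromosomes. With the higher gain cutoff tried below, fewer than 3 did. Which tumours count as gained on both chromosomes or on either alone thus depends on the zero and the cutoff. Chromosome 15 was the higher of the pair in 10 of 14 thymic lymphomas, 6 AD and 4 RP, and in 7 of 10 sarcomas.

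**Figure D5:**
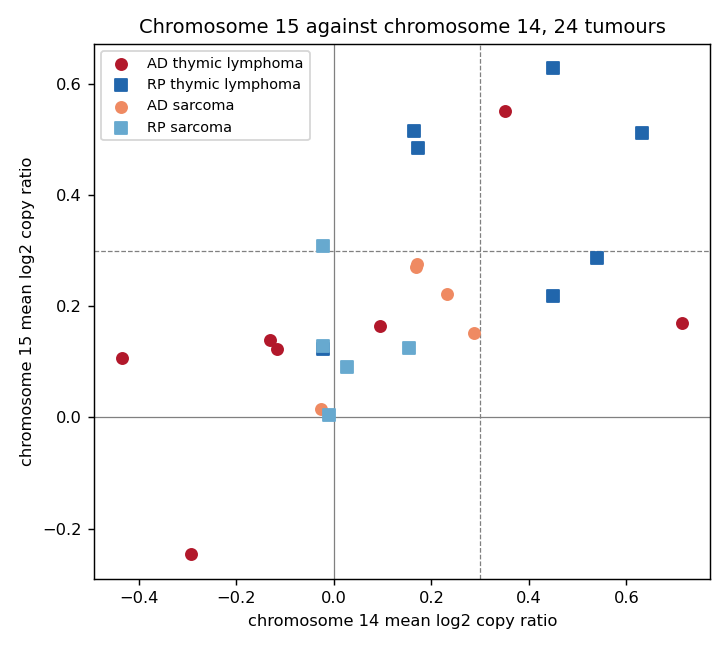
Mean log2 copy ratio of chromosome 15 against that of chromosome 14 in the 24 tumours, by group. AD thymic lymphoma 7 lies far to the right at 0.71 and 0.17, and the thymic lymphomas gained whole on both chromosomes lie at the upper right.

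Chromosomes 14 and 15 were chosen with the AD and RP contrast known, and both averaged lower in AD thymic lymphomas. The resamples also mixed the genotypes, so the p-values over all 14 thymic lymphomas are a description and no evidence of a link. Over the 14 thymic lymphomas the means of chromosomes 14 and 15 had a Pearson r of 0.59 with a permutation p of 0.0247, two-sided. Adjusted over all pairs of the 19 autosomes the p was 0.216, and 0 pairs passed. Spearman's rho was 0.71, with a permutation p of 0.00532 and an adjusted p of 0.152. By r the pair ranked 10 among all pairs of autosomes, and the others ran from -0.81 to 0.75. Without AD thymic lymphomas 3 and 7, the farthest from the median of chromosome 14, r was 0.73 (permutation p = 0.00672, adjusted 0.142).

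Within genotypes r was 0.54 over the 7 AD (exact permutation p = 0.225) and 0.31 over the 7 RP thymic lymphomas (exact permutation p = 0.482). It was 0.46 over deviations from the genotype means, with a permutation p of 0.0975. Spearman's rho was 0.89 over the 7 AD thymic lymphomas (exact permutation p = 0.0123, adjusted 0.701 over all pairs of autosomes) and 0.32 over the 7 RP thymic lymphomas (exact permutation p = 0.498). Over the 10 sarcomas r was 0.41 (permutation p = 0.238, adjusted 0.469) and rho 0.35 (permutation p = 0.329, adjusted 0.661). Without AD sarcomas 1 and 2, r was 0.48.

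The share of bins gained had a median of 48.8% on chromosomes 14 and 15 and of 7.05% on the other 17 over the 14 thymic lymphomas, and the pair was the higher in 8 of 14, 2 AD and 6 RP. In single sarcomas the pair had 0 to 15.9% of bins gained and was the higher in 4 of 10. Whole gains among the other 17 autosomes were seen in 0 to 6 thymic lymphomas each, beside 6 for chromosome 14 and 5 for chromosome 15. These are values of the contrast that chose the chromosomes, and no test is given.

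Boundaries between segments recurred at a few places. Between neighbouring segments of over 10 markers, a boundary fell in 28 bins of chromosome 14, 20 of them in 1 tumour only. On chromosome 15 it fell in 24 bins, 20 of them in 1 tumour. The most shared boundary was at chr14:19000001-20000000, in 14 tumours, with a median change of level of only 0.06. At chr15:76000001-77000000 it was seen in 9 tumours, with a median change of 0.05. At chr14:43000001-44000000 it was seen in 5 tumours, 1 thymic lymphoma and 4 sarcomas, with a larger median change of 0.69. There AD sarcomas 1, 3 and 4 had the segment chr14:43258674-43415039 at 0.92, 0.83 and 0.90, a focal gain over 18 markers. It covered 5 coding genes, Gm8126, Gm8127, 1700001F09Rik, Gm21154 and Gm8138. At the same place RP thymic lymphoma 3 and RP sarcoma 2 were lower than their chromosome, at -0.17 and -0.43. A short segment at chr14:19415856-19583564, over the predicted genes Gm2244 and Gm2237, stood above its chromosome in 14 tumours, 5 thymic lymphomas and 9 sarcomas, and reached 1.48. The genes at these sites are named after their values were seen. At chr15:74817540-74821276, over Gml and Gml2, 4 sarcomas and 0 thymic lymphomas were lower, at -1.28 to -0.23. The 4 were AD sarcomas 1, 2, 3 and 5. At chr15:76904312-76906120, over Rpl8, which encodes a ribosomal protein, 7 tumours departed in both directions. These short segments held 2 to 21 markers each, so their levels rest on few targets.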

How the data were processed

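Tumour DNA was exome sequenced, and the deposited files hold segmented copy number: a log2 segment mean and the number of markers behind it, per the file headers. Per the submitters' processing notes the tools included GATK 4.1.0.0, the aligner BWA 0.7.17 and the trimmer Trim Galore 0.6.5, with the GRCm38 build. For the comparison DNA, segmentation settings and centring, nothing was given in the sources used here, and the log2 base was read from the column's values and usual format. Read depth is unknown, so no interval from counts is given, and the spread over tumours is the error used. The number of deposited markers (other) served to describe a segment's support.

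Segments were averaged by overlap into 1 Mb bins. Means over bins were compared by exact permutation tests, two-sided, over all 627264 relabellings within genotype, 3432 of 7 against 7 or 252 of 5 against 5. Adjustment was by Benjamini-Hochberg over all 2388 autosomal bins or 19 autosomes. Correlations used 100000 resamples, or all orderings within a genotype. Python 3.11.15, numpy 2.4.6, pandas 2.3.3, scipy 1.17.1, matplotlib 3.10.9, R 4.3.3 and limma 3.58.1 were used, and the permutation code was tested on simulated data. Gains and losses were log2 values of at least 0.3 and at most -0.3. Gene values are overlap-weighted segment means. Genes named are those of 12 lists, genes of common or focal regions that are in the lists, and all coding genes of such regions holding 10 or fewer. Names chosen outside this rule are marked where they stand. All 98 listed names matched the RefSeq table. The bins left out were those of the T-cell receptor locus, 4 bins of chromosome 14 and 2 of chromosome 15 that some tumour's segments did not reach. The chromosomes, members and lists were chosen with earlier results of these data known. Alternatives were other centring, cutoffs, bin sizes, tests and tumours left out.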

Additional observations from a re-analysis of the deposited data

Results flagged for a closer look

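Of 20 groups of values examined for a tumour standing far from its group, 3 had one. The limit used marks about 1 in 20 independent groups by chance. These groups share tumours and were chosen with results of these data known, so no excess over chance is read from the 3. Myc was at 1.35 in RP thymic lymphoma 4, above the other 6 RP thymic lymphomas. Myc was at 2.22 in RP sarcoma 2, above the other 4 RP sarcomas. The chromosome 14 mean was 0.155 in RP sarcoma 1, above the other 4 RP sarcomas.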

How the results depend on the processing

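Of 136 values recomputed under other settings, leave-one-out aside, 119 stayed within the limits set for a change, 17 did not, and 0 reversed. With each tumour centred on its autosomal median, both chromosomes were gained whole in 6 thymic lymphomas, chromosome 14 in 1 sarcoma and chromosome 15 in 1 sarcoma, and 71 chromosome 14 bins shared the largest number of gains. With a gain cutoff of 0.2, sarcomas had 2 whole gains of chromosome 14, 4 of chromosome 15 and 1 of both, and 51 chromosome 14 bins shared the largest number. With 0.5, thymic lymphomas had 3 of chromosome 14, 2 of chromosome 15 and 0 of both, the largest number on chromosome 14 was 4 in 1 bin, and 28 chromosome 15 bins shared theirs. In 5 Mb bins, 15 on chromosome 15 were lower in AD than in RP thymic lymphomas at an unadjusted p under 0.05. The share over all autosomal 5 Mb bins was not computed. At that threshold limma gave 63 of 115 1 Mb bins lower in AD on chromosome 14 and 75 of 99 on chromosome 15. Over all 2388 autosomal bins limma gave 142 lower and 142 higher, and its smallest adjusted p was 0.413. The chromosomes were chosen with this contrast known, so these counts are no evidence of a difference. Without AD thymic lymphoma 7 and RP thymic lymphoma 7, an alternative chosen after seeing the data, 113 chromosome 14 bins shared the largest number. The causes were not tested.

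Leaving out each tumour in turn, thymic lymphoma minus sarcoma was 0.03 to 0.13 on chromosome 14 and 0.08 to 0.14 on chromosome 15, and AD minus RP sarcoma 0.11 to 0.19 and 0.02 to 0.10. AD minus RP thymic lymphoma was -0.43 to -0.24 on chromosome 14 and -0.32 to -0.19 on chromosome 15. At an unadjusted p under 0.05 by exact permutation, 0 to 115 and 0 to 99 bins were lower in AD. With every tumour kept, 3.02% of all autosomal bins were lower at that threshold. These counts are a description only. The correlation was 0.49 to 0.72 in thymic lymphomas and 0.29 to 0.70 in sarcomas. Whole gains in thymic lymphomas numbered 5 to 6 on chromosome 14, 4 to 5 on chromosome 15 and 2 to 3 on both. The largest number of gains was 6 to 7 in 10 to 113 bins on chromosome 14 and 4 to 5 in 98 to 99 bins on chromosome 15. No paired analysis between the tumour groups was possible, since they share no number in their sample titles. The 4 ear samples each share such a number with a tumour and were not used here. Groups of 5 to 7 tumours, unknown tumour cell content and unknown centring limit the precision of these values.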
